A study of Homo sapiens with 12 samples.

Results

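The natriuretic peptide family described here comprised the 3 peptide genes NPPA, NPPB and NPPC, the 3 receptor genes NPR1, NPR2 and NPR3, and the cGMP-dependent kinase genes PRKG1 and PRKG2, 8 of the 25718 genes in the count files. The members were found by gene name, and where a gene had several transcripts the transcript with the highest mean count was used. The family was chosen by the doxycycline fold changes of NPPC (higher) and NPPB (lower) in earlier results of these data, so the doxycycline values of these 2 genes are a description and carry no test. Reads reached 6 of the 8 members, and 4 of them (NPPB, NPPC, NPR2 and PRKG1) had a mean above 10 counts over the 12 samples, the level at which genes were tested.

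Natriuretic peptides are secreted as precursors and act through receptors that are themselves guanylate cyclases. NPPA encodes atrial natriuretic peptide and NPPB brain natriuretic peptide, which are best known as hormones of the heart and bind NPR1, whereas NPPC encodes C-type natriuretic peptide, the ligand of NPR2, which is made in brain, endothelium and cartilage. NPR3 binds all of these peptides and removes them. Cyclic GMP made by the receptors activates the kinases encoded by PRKG1 and PRKG2, and C-type natriuretic peptide with NPR2 is known for guiding the branching of sensory axons and for bone growth.

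The 12 samples were cultures of H9, an established human embryonic stem cell line, that carried a lentiviral vector for miR-10a with GFP or for miR-10b with GFP, infected at a multiplicity of 50 and switched on by doxycycline. All cells were neuralised and patterned towards ventral midbrain with sonic hedgehog at 200 ng/ml and a WNT-activating compound. Doxycycline was present from day 11 in 3 cultures of each vector, and all cultures were harvested on day 14. The 3 control cultures of each vector carried the same vector and received no doxycycline, so that doxycycline itself and the miRNA cannot be told apart in these samples. The hESCs had been kept on mouse embryonic fibroblasts before differentiation, and the cultures were not sorted for GFP as far as the sources used here state. The groups are called miR-10a control, miR-10a doxycycline, miR-10b control and miR-10b doxycycline, with n = 3 in each. It is not stated whether replicates came from separate differentiations, so the tests measure the spread between these cultures.

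The total count was between 10545487 and 14165426 per sample, with all controls above all doxycycline samples of the same vector, and 3 counts, taken as the floor of detection, corresponded to 0.212 to 0.284 CPM (the count scaled to the sample's total). The floor covers counting error only. MIR10A held 7502 to 8801 counts in the miR-10a doxycycline samples and 8 to 17 in their controls, and MIR10B held 29615 to 31908 counts in the miR-10b doxycycline samples and 39 to 56 in their controls. Replicate 2 of the miR-10b doxycycline group stood apart from its group, with a chi-square of counts per degree of freedom of 3.17 and 4.11 against the other two, while the other 10 replicate pairs gave 1.22 to 1.93. The progenitor markers SOX2 and NES and the floor plate markers FOXA1 and SHH were present in every group, with mean levels of 1034 to 1170 CPM for SOX2 and 558 to 626 CPM for SHH. FOXA2 and LMX1A, each with 2 transcripts, were lower, with group means of 6.45 to 9.48 and 2.93 to 7.12 CPM. PAX6 had a mean of 0.167 counts and OTX2 6.25 counts per sample on the transcripts used, both being genes with 7 transcripts. The control lines were not alike in these markers. Of 11 tested markers of progenitors and floor plate, 6 were higher and 1 lower in the miR-10b controls (edgeR), where 14.1% of all tested genes differed. The lower one was SOX1, at 22.2 CPM against 52.15 in the miR-10a controls.

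Sequences are shown for the miRNA and for the matches to its seed in the family, since the purpose of the experiment was to find transcripts that miR-10 acts on. RefSeq (GRCh38.p14) places mature miR-10a-5p on the minus strand at chr17:48579904-48579926. Capitals mark the seed, bases 2 to 8.
hsa-miR-10a-5p: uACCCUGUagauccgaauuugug

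The longest annotated 3′UTR of each member (GENCODE 44 on GRCh37) was searched on the gene's own strand for the 8mer ACAGGGTA, the 7mer-m8 ACAGGGT, the 7mer-A1 CAGGGTA and the 6mer CAGGGT, each site being counted under its longest match. NPR3 was the single member with a match. Its 3′UTR of 5382 bases held a 6mer at chr5:32789237-32789242 and a 7mer-m8 at chr5:32791212-32791218, both on the plus strand and shown here with 10 bases on each side and the match in capitals.
NPR3 6mer: ccctgaaatcCAGGGTgttcagattt
NPR3 7mer-m8: agatttggaaACAGGGTggcctcttca

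NPPC and NPPB, with 3′UTRs of 530 and 194 bases, held none of these 4 motifs, nor did NPPA (303 bases), NPR1 (581 bases), NPR2 (289 bases), PRKG1 (4526 bases) or PRKG2 (2341 bases). A 3′UTR was annotated for 9267 of the tested genes, with a median length of 1554 bases. Among these genes 40.6% held at least 1 of the motifs, 14.3% a 7mer-m8 and 2.59% an 8mer. Most of the members' 3′UTRs are thus shorter than the median, and a missing match says only that these letters are not in the window searched. The pentamer ATTTA, the core letters of AU-rich elements, occurred 4 times in the NPPC 3′UTR and 2 times in that of NPPB, against 0 in NPPA, NPR1 and NPR2 and 19, 11 and 7 in the long 3′UTRs of NPR3, PRKG1 and PRKG2, and 75.4% of the tested genes with a 3′UTR held it. Per 100 bases it stood at 0.75 in NPPC, 1.03 in NPPB and 0.35, 0.24 and 0.30 in those 3 long 3′UTRs. The median over the tested genes with a 3′UTR was 0.17. The densities of NPPC and NPPB rest on few copies and are a description.

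NPPC (NM_024409, minus strand of chr2:232786519-232791106 on GRCh37) had the widest differences of the family. In counts it stood at 111, 115 and 105 in the miR-10a doxycycline samples against 20, 18 and 24 in their controls. With the miR-10b vector it stood at 69, 68 and 72 counts against 14, 17 and 21. The groups did not overlap with either vector, and no doxycycline sample came near the highest control.

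Scaled to the total, NPPC was at 9.84 ± 0.283 CPM (SD, n = 3) with miR-10a and doxycycline and at 1.60 ± 0.326 (SD, n = 3) in the control. With miR-10b it was at 5.88 ± 0.0974 CPM (SD, n = 3) and 1.32 ± 0.238 (SD, n = 3). These levels correspond to a log2 fold change of 2.62 ± 0.16 (SE), or 6.16-fold, for miR-10a and of 2.15 ± 0.19 (SE), or 4.43-fold, for miR-10b. NPPC ranked 4 of the 11451 tested genes by the absolute log2 fold change over both vectors, which was 2.39 ± 0.13 (SE).

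NPPB (NM_002521, minus strand of chr1:11917521-11919002) lay on the other side. Its counts were 15, 12 and 12 in the miR-10a doxycycline samples and 21, 32 and 19 in their controls. In miR-10b cells they were 10, 12 and 12 with doxycycline and 30, 39 and 38 without it. All 6 doxycycline samples were below the controls of their vector after scaling, by a wide margin with miR-10b and by a narrow one with miR-10a, where the highest doxycycline sample had 1.36 CPM and the lowest control 1.52 CPM.

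NPPB stood at 1.16 ± 0.184 CPM (SD, n = 3) with miR-10a and doxycycline and at 1.82 ± 0.387 (SD, n = 3) in the control, a log2 fold change of -0.66 ± 0.27 (SE), or 1.58-fold lower. Without the miR-10a control replicate 2, which held 32 counts, this value was -0.47. In miR-10b cells NPPB stood at 0.956 ± 0.101 CPM (SD, n = 3) with doxycycline and at 2.71 ± 0.283 (SD, n = 3) without, a log2 fold change of -1.50 ± 0.25 (SE), or 2.82-fold lower. Over both vectors the value was -1.08 ± 0.18 (SE), which ranked 14 by size among all tested genes.

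Of all tested genes, 3.71% had every doxycycline sample above every control of its vector with both vectors, as NPPC did, and 2.95% had every one below, as NPPB did; these shares are background only, since the same contrast chose both genes. All tested genes together had a median of 0.01 in miR-10a cells and of 0.02 in the other line on this scale. In a bulk sample, fewer cells of a type and less RNA per cell cannot be told apart, and this holds for each level given here.

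NPPA (NM_006172, minus strand of chr1:11905766-11908402), whose start lies 10.6 kb from that of NPPB, was near the floor of detection. It had 6, 6 and 13 counts in the miR-10a doxycycline samples and 8, 11 and 9 in their controls, and 6, 10 and 11 against 8, 4 and 7 in miR-10b cells. The groups overlapped with both vectors. Its mean of 8.25 counts kept it out of the tested genes, and in a fit without a filter the log2 fold change was 0.05 ± 0.40 (SE) with miR-10a and 0.64 ± 0.43 (SE) with miR-10b (edgeR, adjusted p = 1 and adjusted p = 0.490). The 95% intervals, -0.74 to 0.84 and -0.20 to 1.49, allow for differences in either direction. NPPA shares 286 of its 1120 annotated exon bases with CLCN6 on the opposite strand, and whether reads were counted by strand is not stated in the sources used here. CLCN6 itself had a mean of 0.167 counts on the transcript used, and NPPA-AS1, the annotated antisense RNA, had 10 to 19 counts in miR-10a cells and 17 to 32 in miR-10b cells.

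**Figure D1:**
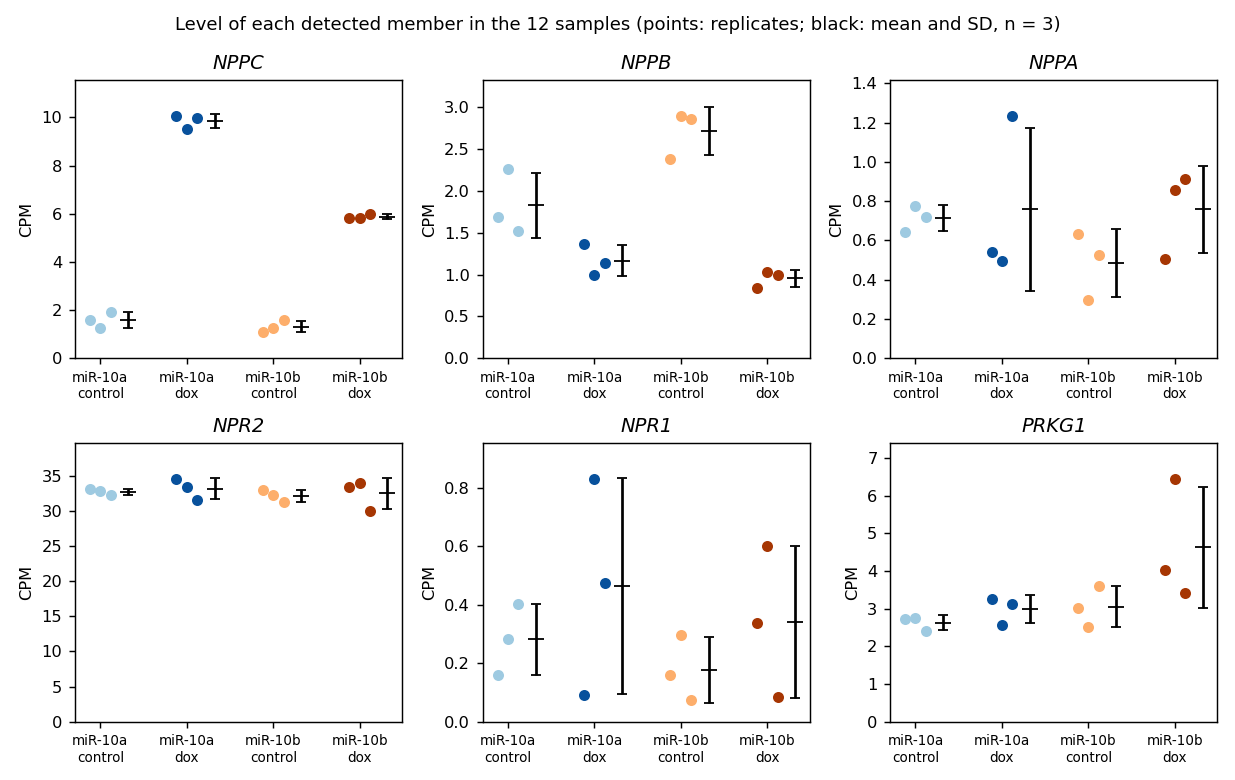
Level in CPM (vertical axes, each starting at 0) of the 6 members with reads in the 4 groups of samples. Coloured points are the 3 replicates of a group and black marks the mean with its SD. NPPC lies between 9.52 and 10.05 in miR-10a cells with doxycycline and at most at 1.92 in any control, NPPB is lower with doxycycline than in the controls of its vector, and NPR2 lies between 30.0 and 34.5 in all 12 samples.

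Within each sample the proportions of the 3 peptide genes were worked out. Scaled to transcript length, so that levels can be compared between genes, NPPC made up 30.4% to 47.6% of the summed level of the peptide genes in the miR-10a controls and 82.2% to 87.1% with doxycycline. In miR-10b cells its share was 27.6% to 32.4% in the controls and 77.1% to 82.2% with doxycycline. NPPB held the largest share in 5 of the 6 controls and in none of the doxycycline samples. The ratio of NPPC to NPPB, per length, was 0.560 to 1.26 and 0.434 to 0.550 in the miR-10a and miR-10b controls, and 7.37 to 9.54 and 5.64 to 6.87 with doxycycline. Like the levels they are made from, these shares are a description.

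**Figure D2:**
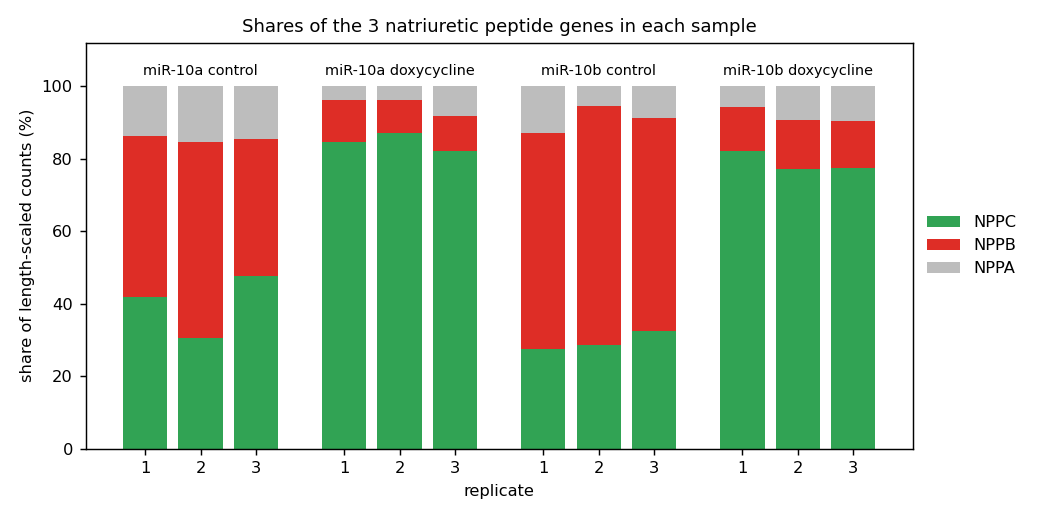
Share (%) of each peptide gene in the summed CPM per kilobase of NPPC, NPPB and NPPA, one bar for each of the 12 samples with the replicate number under it. NPPC fills 77.1% to 87.1% of the bar in the 6 doxycycline samples and 27.6% to 47.6% in the 6 controls.

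NPR2 (NM_003995, plus strand of chr9:35791000-35809729), the guanylate cyclase receptor of C-type natriuretic peptide, was the best measured member. It held 381, 404 and 333 counts in the miR-10a doxycycline samples and 412, 465 and 403 in their controls. With miR-10b it held 398, 397 and 361 counts against 415, 435 and 416. Once scaled, the groups lay on top of each other, since the doxycycline samples also had the lower totals.

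The level of NPR2 was 33.2 ± 1.48 CPM (SD, n = 3) with miR-10a and doxycycline and 32.7 ± 0.416 (SD, n = 3) in the control. It was 32.5 ± 2.19 CPM (SD, n = 3) with miR-10b and doxycycline and 32.15 ± 0.858 (SD, n = 3) in the control. The log2 fold change was 0.02 in each vector (edgeR quasi-likelihood test, Benjamini-Hochberg adjusted p = 0.952 with miR-10a and 0.912 with miR-10b). Its 95% interval was -0.11 to 0.15 with miR-10a, -0.12 to 0.15 with miR-10b and -0.08 to 0.11 over both vectors. Differences within these bounds remain possible. NPR2 shares 329 of its 8353 exon bases with SPAG8 on the opposite strand.

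NPR1 (NM_000906, plus strand of chr1:153651164-153666468), the receptor of the atrial and brain peptides, had 1 to 10 counts in every sample. They were 1, 10 and 5 in the miR-10a doxycycline samples, 2, 4 and 5 in their controls, 4, 7 and 1 in the miR-10b doxycycline samples and 2, 4 and 1 in theirs. The groups overlapped. Without a filter the log2 fold change over both vectors was 0.81 ± 0.45 (SE; edgeR, adjusted p = 0.367), with a 95% interval of -0.08 to 1.70.

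NPR3 (NM_000908, plus strand of chr5:32689176-32791830), the clearance receptor and the single member with seed matches, was listed at 0 on each of its 3 transcripts in all 12 samples. Reads shared by several transcripts appear to have been left out of the counts: of genes with 3 transcripts 24.8% were at 0 throughout, against 15.8% of genes with 1 transcript, and genes with 1 transcript held 92.8% of all counts. A value of 0 for NPR3 is therefore no measurement of its absence, and the seed matches shown above could not be set beside a level.

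PRKG1 (NM_006258, plus strand of chr10:52750648-54058183) encodes the widely expressed cGMP-dependent protein kinase. It had 36, 31 and 33 counts in the miR-10a doxycycline samples and 34, 39 and 30 in their controls, and the groups overlapped. In miR-10b cells it had 48, 75 and 41 counts with doxycycline and 38, 34 and 48 without, and here the groups overlapped too, with the highest value in the replicate that stood apart from its group.

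PRKG1 stood at 2.985 ± 0.369 CPM (SD, n = 3) against 2.63 ± 0.196 (SD, n = 3) in miR-10a cells, a log2 fold change of 0.17 ± 0.23 (SE; edgeR, adjusted p = 0.851; 95% interval -0.29 to 0.64). In miR-10b cells it stood at 4.63 ± 1.60 CPM (SD, n = 3) against 3.05 ± 0.544 (SD, n = 3), a log2 fold change of 0.60 ± 0.20 (SE) that passed the test (edgeR, adjusted p = 0.0344; 95% interval 0.20 to 1.00). Without replicate 2 of the miR-10b doxycycline group the value was 0.29 (adjusted p = 0.418). The call was also lost without the miR-10b control replicate 1 (0.59, adjusted p = 0.0793) or replicate 2 (0.47, adjusted p = 0.169), and DESeq2 gave no adjusted p for it (0.58, unadjusted p = 0.0228). A second transcript of PRKG1, NM_001098512, held 0 to 11 counts per sample, and the counts of this gene come from the reads that its transcripts do not share. PRKG2 (NM_001282480, minus strand of chr4:82008524-82136376), the kinase known from intestine, brain and growth plate, was listed at 0 on all of its 6 transcripts in every sample, as 27.8% of genes with 6 transcripts were.

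Among the 2 members that could be tested for doxycycline, NPR2 and PRKG1, none passed the test with miR-10a, where 1.21% of all tested genes did. With miR-10b 1 of the 2 passed, PRKG1, where 15.3% of all tested genes did. Over both vectors none passed, where 13.9% of all tested genes did; the value of PRKG1 was 0.39 ± 0.15 (SE; edgeR, adjusted p = 0.0864). At an unadjusted p under 0.05 the number was 0 with miR-10a in edgeR and in DESeq2, and 1, PRKG1, over both vectors in edgeR and in DESeq2.

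The doxycycline effects of the 2 vectors were then set against each other. For NPPC and NPPB this difference is made from the same doxycycline fold changes that led to the choice of the family. Their p-values here are therefore not independent of that choice and are given as a description. The difference, miR-10b minus miR-10a, was -0.48 ± 0.29 on the log2 scale (SE; 95% interval -1.06 to 0.10) for NPPC and -0.83 ± 0.38 (SE; 95% interval -1.61 to -0.06) for NPPB. For NPR2 its 95% interval was -0.19 to 0.18 and for PRKG1 it was 0.42 ± 0.30 (SE; 95% interval -0.19 to 1.04). None of the 4 tested members passed (edgeR, adjusted p = 0.516 for NPPC, 0.331 for NPPB, 0.995 for NPR2 and 0.595 for PRKG1), and 1.96% of all tested genes did. Before adjustment NPPB alone was under 0.05 in edgeR, at 0.0376, and DESeq2 gave it 0.0965. In level, each NPPC value of the miR-10a doxycycline samples was above each of the miR-10b doxycycline samples, with 9.52 CPM as the lowest of the former and 5.99 CPM as the highest of the latter. The share of all tested genes parted in this way was not counted. This order uses the values that chose NPPC and is a description only.

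Without induction, the 2 transduced lines were compared through their controls. Vector, line and culture cannot be told apart here. The control values of NPPC and NPPB also enter the doxycycline fold changes that led to the choice of the family. For these genes the p-values here are therefore not independent of that choice and are given as a description. NPPB was higher in the miR-10b controls by 0.56 ± 0.21 on the log2 scale (SE; 95% interval 0.13 to 0.99), which missed the threshold (edgeR, adjusted p = 0.0734). Every miR-10b control lay above every miR-10a control, as in 14.2% of all tested genes. Leaving out the miR-10a control replicate 2 gave 0.75 (adjusted p = 0.0392). NPPC differed by -0.26 ± 0.25 (SE; adjusted p = 0.610), PRKG1 by 0.21 ± 0.22 (SE; adjusted p = 0.628) and NPR2 by -0.03 ± 0.06 (SE; adjusted p = 0.855). None of the 4 passed, where 14.1% of all tested genes did. Before adjustment NPPB alone was under 0.05 in edgeR, at 0.0118, and DESeq2 had 0 of the 4 under it.

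**Figure D3:**
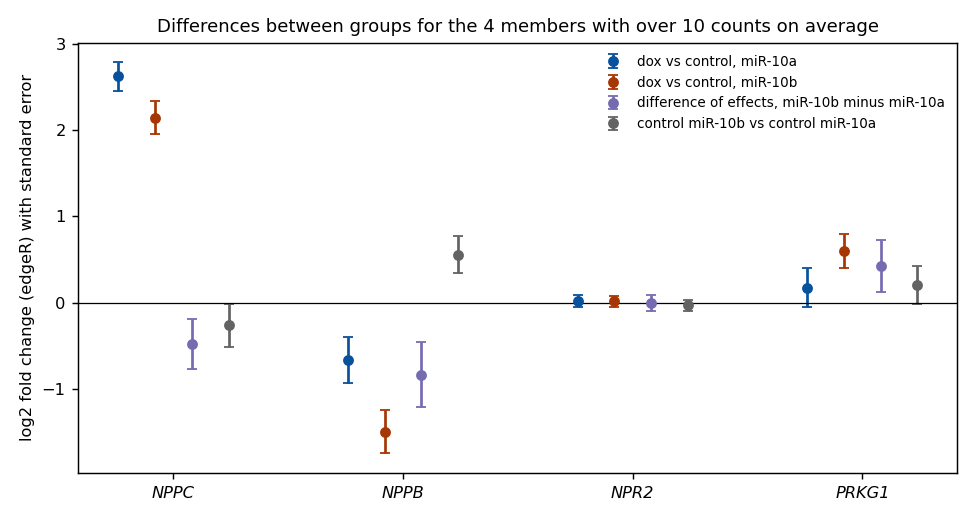
Log2 fold change with its standard error (vertical axis) of the 4 members with a mean above 10 counts, for doxycycline against control with each vector, for the difference of these effects and for the controls of the vectors against each other. NPPC lies at 2.62 and 2.15, NPPB at -0.66 and -1.50 and NPR2 at 0.02 in both vectors, where values for NPPC and NPPB in the doxycycline comparisons are shown without a test.

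Ordered by CPM per kilobase of transcript, NPR2 had the highest level of the family in the miR-10a control (9.55), the miR-10b control (9.37) and the miR-10b doxycycline group (9.48). In the miR-10a doxycycline group NPPC, at 14.0, was above NPR2, at 9.67, and in the miR-10b doxycycline group NPPC reached 8.38. The samples of NPR2 and of its nearest neighbour in the order did not overlap in any group. Lower down, NPPB at 2.61 and NPPC at 2.28 CPM per kilobase overlapped in the miR-10a control, while in the miR-10b control NPPB at 3.88 lay above NPPC at 1.88. NPPA was at 0.569 to 0.889, PRKG1 at 0.397 to 0.698 and NPR1 at 0.0422 to 0.111 CPM per kilobase in the 4 groups. NPPA and PRKG1 overlapped in both miR-10b groups, and NPPB and NPPA overlapped in the miR-10a doxycycline group. The level of PRKG1 per length is an underestimate to the extent that reads shared by its transcripts were left out.

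The wider pathway was described from 4 lists of genes for cGMP synthesis, cGMP breakdown and export, peptide processing and clearance, and the targets of cGMP and its kinases, in all 50 genes, of which 14 were tested. With miR-10a, 1 of the 14 rose and 1 fell, where 0.472% of all tested genes rose and 0.742% fell. With miR-10b, 2 rose and 2 fell (all tested genes 8.18% and 7.15%), and over both vectors 1 rose and 2 fell (all tested genes 7.67% and 6.22%). The lists were written with earlier results of these data known.

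NOS2, the inducible nitric oxide synthase, whose product activates soluble guanylate cyclase, was the single tested gene of 9 in the synthesis list. It fell from 205.2 ± 3.91 to 174.6 ± 9.55 CPM (SD, n = 3) in miR-10a cells and from 114.7 ± 3.15 to 90.4 ± 1.32 CPM (SD, n = 3) in miR-10b cells. The log2 fold change was -0.23 ± 0.04 (SE; edgeR, adjusted p = 0.00034) and -0.34 ± 0.04 (SE; adjusted p = 3.3e-07). No sample of a doxycycline group reached its controls. With both vectors, 2.95% of all tested genes were likewise lower in every doxycycline sample. The genes of the soluble guanylate cyclase subunits in this list, GUCY1A2, GUCY1A3 and GUCY1B3, had means of 0.417 to 1 counts and have 2 to 7 transcripts each.

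Of the 18 genes for cGMP breakdown and export, 7 were tested and 1 passed. ABCC5, a transporter that carries cyclic nucleotides out of cells, rose with miR-10b by 0.16 ± 0.04 on the log2 scale (SE; edgeR, adjusted p = 0.0068), from 97.6 ± 3.73 to 109.4 ± 2.11 CPM (SD, n = 3), while with miR-10a the value was -0.02 ± 0.04 (SE; adjusted p = 0.929). The difference between the vectors was 0.18 ± 0.06 (SE; adjusted p = 0.127). The call with miR-10b was lost without the miR-10b control replicate 3 (0.14, adjusted p = 0.0614). For the miR-10a and miR-10b vectors the list had median log2 fold changes of 0.01 and 0.16, against 0.01 and 0.02 over all tested genes. With 7 tested genes, the median with miR-10b is the value of ABCC5 itself. The genes above it, PDE3A, PDE5A and PDE6C, had low means of 19.9, 11.8 and 12.3 counts. The phosphodiesterase genes tested, PDE3A, PDE3B, PDE5A, PDE6C and PDE6D, had log2 fold changes of -0.10 to 0.34 in miR-10a cells and of 0.07 to 0.56 in miR-10b cells, and none passed (edgeR).

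CORIN, the protease that cleaves the precursor of atrial natriuretic peptide and is used as a floor plate marker, was 1 of 2 tested genes of 7 for peptide processing and clearance. It fell with miR-10b from 21.8 ± 1.16 to 12.8 ± 0.820 CPM (SD, n = 3), by 0.77 on the log2 scale (edgeR, adjusted p = 6.3e-08). With miR-10a it was at 7.10 ± 0.846 CPM in the control and 5.88 ± 0.575 with doxycycline (SD, n = 3), a value of -0.28 ± 0.13 (SE) that missed the threshold (adjusted p = 0.423). The difference between the vectors, -0.49 ± 0.16 (SE; adjusted p = 0.131), was not past it either. IDE, which degrades the peptides, was the other tested gene, at 0.10 and -0.10. FURIN, PCSK5, PCSK6 and MME had means of 0.167 to 2.92 counts on genes with several transcripts.

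RGS2, a regulator of G protein signalling that cGMP-dependent kinase acts on, was among 4 tested genes of 16 downstream of cGMP. It rose with miR-10b from 58.8 ± 1.91 to 74.75 ± 1.92 CPM (SD, n = 3), by 0.35 ± 0.05 on the log2 scale (SE; edgeR, adjusted p = 2.4e-06). With miR-10a it rose from 42.0 ± 1.18 to 48.6 ± 1.80 CPM (SD, n = 3), by 0.21 ± 0.06 (SE; adjusted p = 0.0434), but the call held in 4 of 12 fits that left out a sample, and TMM factors gave an adjusted p of 0.0578 and DESeq2 0.115. VASP, the classical substrate of the kinase, was at 0.07 and 0.01, PPP1R12A at 0.25 and 0.27 and HSPB6 at -0.14 and 0.35, and none of them passed.

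**Figure D4:**
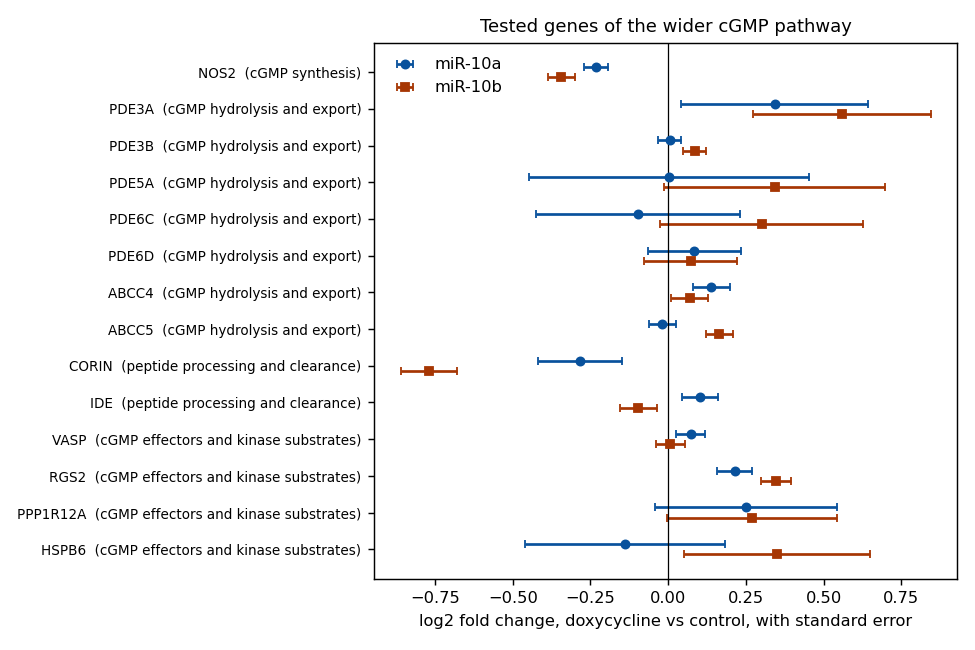
Log2 fold change of doxycycline against control, with its standard error (horizontal axis), for the 14 tested genes of the wider cGMP pathway, circles for miR-10a and squares for miR-10b. NOS2 lies at -0.23 and -0.34, CORIN at -0.28 and -0.77 and RGS2 at 0.21 and 0.35.

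Because NPPA and NPPB are genes of heart muscle, and NPPC is made by endothelium among other tissues, markers of these cell types were set beside them. Of the 14 cardiac markers, TNNT2, MYL2, MYL4, NKX2-5 and TBX5 were at 0 in all 12 samples; of these MYL2 has 1 transcript and the others have 2 to 7. The 3 tested markers, TNNI3, ACTC1 and RYR2, did not pass with either vector, and at an unadjusted p under 0.05 the number was 0 in edgeR, as was the number called by DESeq2. All 14 cardiac markers together summed to 49.1 to 56.2 CPM with miR-10a and doxycycline against 51.5 to 54.3 in the control, and 61.4 to 63.7 against 57.4 to 64.7 CPM with miR-10b. In 8 tested markers of 10 for smooth muscle and fibroblasts, none passed with miR-10a in edgeR (1 at an unadjusted p under 0.05) or in DESeq2, while CNN1, COL1A1 and COL3A1 fell with miR-10b, by 0.73, 0.60 and 0.21 on the log2 scale, 3 of 8 where 7.15% of all tested genes fell. The summed level of this list was 239.5 to 258.6 CPM with miR-10b and doxycycline and 298.5 to 325.2 in the control, against 133.5 to 149.6 and 136.2 to 139.2 CPM with miR-10a, and MYH11 was at 0 throughout. CNN1, COL1A1 and COL3A1 are followed further because they fell with miR-10b. The miR-10b controls lay above the miR-10a controls by 0.35, 1.16 and 1.95 on the log2 scale for them. For ACTA2, TAGLN, PDGFRB, COL1A2 and LUM, the other tested markers of the list, this gap was 0.006, 0.20, 0.23, -0.22 and 1.07. For NPPB it was 0.56 and missed the threshold. The other markers were at 0.04, -0.52, -0.24, -0.27 and -0.20 with miR-10b and doxycycline, and none passed (edgeR). Under doxycycline, NPPB changed by -0.66 in the miR-10a line, where CNN1, COL1A1 and COL3A1 moved by 0.14, 0.05 and 0.17. The fall of NPPB in the miR-10b line, where the same 3 markers fell too, was larger, at -1.50. The difference between the vectors passed in edgeR for CNN1 (adjusted p = 0.00195), COL1A1 (adjusted p = 9.7e-05) and COL3A1 (adjusted p = 0.00176), where 1.96% of all tested genes passed. DESeq2 called COL1A1 and COL3A1 and gave no adjusted p for CNN1. These 3 markers were named for their fall with miR-10b, which enters this difference, so its p-values are a description. The part of these cells in the values of NPPB was not tested.

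For the endothelium, CDH5 and KDR were tested out of 6 markers, and the summed level was 6.07 to 7.62 CPM with miR-10a and doxycycline and 6.09 to 8.33 in the control, and 6.24 to 7.72 against 5.70 to 7.36 with miR-10b. KDR, with a mean of 17.1 counts, rose over both vectors by 0.84 ± 0.21 on the log2 scale (SE; edgeR, adjusted p = 0.00397). It was at 0.955 and 2.05 CPM without and with doxycycline in miR-10a cells and at 1.05 and 1.60 CPM in miR-10b cells. With neither vector alone did KDR pass (edgeR, adjusted p = 0.052 with miR-10a and 0.164 with miR-10b). CDH5 was at -0.31 over both vectors (edgeR, adjusted p = 0.0860). DESeq2 called neither of them and left 1 without an adjusted p. Of 13 neural progenitor and floor plate markers 11 were tested, and NES, HES5 and CORIN fell with miR-10b, 3 of 11 where 7.15% of all tested genes fell. With miR-10a none passed in edgeR (3 at an unadjusted p under 0.05) or in DESeq2. The 6 neural crest markers summed to 0.673 to 2.32 CPM in any sample and none was tested. The 6 pluripotency markers included NANOG at 0 in all samples, and DPPA4, the tested one, was at 0.01 and -0.03. Of 7 neuron markers 4 were tested, and NEUROD1 rose with miR-10b by 0.24 (adjusted p = 0.00568) and over both vectors by 0.20 (adjusted p = 0.00116).

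Position on the chromosome was described next. Within 200 kb of the start of NPPC, 2 genes were tested. PDE6D lay 140.1 kb towards lower coordinates, at 0.08 ± 0.11 over both vectors (SE; edgeR, adjusted p = 0.701), and DIS3L2 34.8 kb towards higher ones, at 0.15 ± 0.09 (SE; adjusted p = 0.280). Neither passed in any doxycycline comparison, at an unadjusted p under 0.05 in edgeR or in DESeq2. Near the start of NPPA or NPPB, 8 tested genes besides NPPB are described. None of them passed with miR-10a in edgeR (1 at an unadjusted p under 0.05) or in DESeq2, 3 passed with miR-10b and 2 over both vectors (1 and 1 in DESeq2), where 15.3% and 13.9% of all tested genes did. Of these, PLOD1, a collagen-modifying lysyl hydroxylase 75.3 kb from NPPB, fell with miR-10b by 0.23 (adjusted p = 0.00018) and over both vectors by 0.17 (adjusted p = 7.9e-05). MAD2L2 (0.51, adjusted p = 0.0292) and KIAA2013 (0.12, adjusted p = 0.0447) passed with miR-10b and FBXO2 (0.56, adjusted p = 0.0426) over both vectors. Of 12 fits that each left out a sample, the call held in 7 for MAD2L2, in 2 for KIAA2013 and in 3 for FBXO2, with adjusted p up to 0.117, 0.109 and 0.123. The values of these 4 were all smaller in size over both vectors than that of NPPB. Since NPPB was chosen by its doxycycline change, this order carries no weight.

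**Figure D5:**
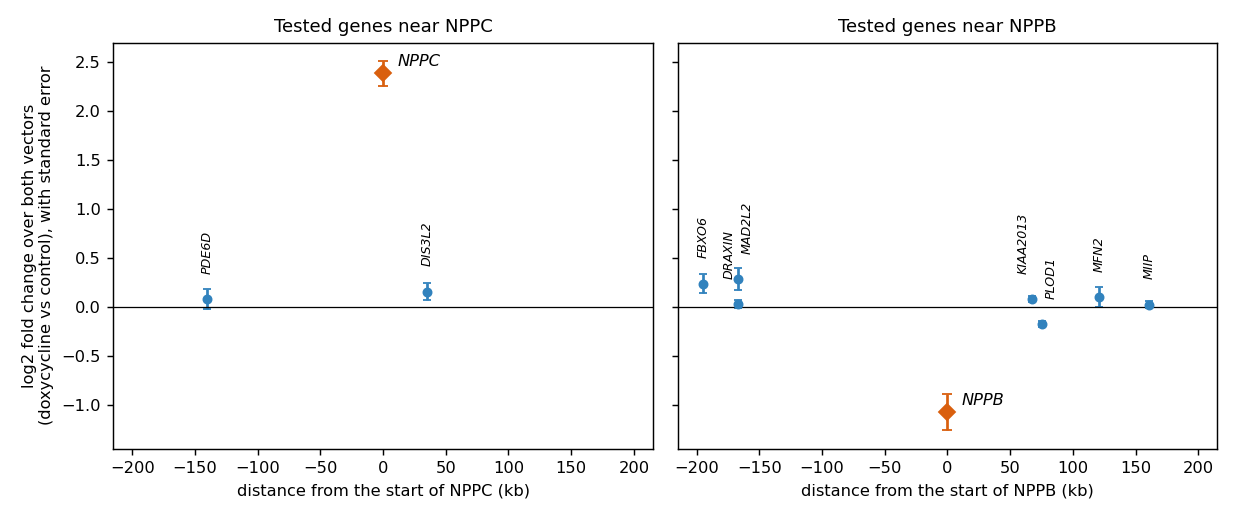
Log2 fold change over both vectors with its standard error (vertical axis) against the distance of the transcript start in kb (horizontal axis, positive towards higher coordinates) for the tested genes described within 200 kb of NPPC and of NPPB. NPPC is at 2.39 and NPPB at -1.08, both chosen by their doxycycline changes, and their tested neighbours lie between -0.17 and 0.28. The gap to the neighbours follows from that choice and carries no test.

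The genes whose pattern over the 12 samples was most like that of NPPC were looked for among all tested genes, by the root mean square difference of log2(CPM + 0.5) after centring each gene. The nearest were SCX, a transcription factor of tendon, at 0.721, PCP4L1 at 0.722 and AGPAT4-IT1 at 0.758. SCX was at 3.54 and 1.89 CPM with and without doxycycline in miR-10a cells and at 3.52 and 1.75 in miR-10b cells, and PCP4L1 at 1.62 and 0.764 and at 1.68 and 0.740. Their differences were smaller than that of NPPC, so that the nearest genes still lay far from it. NPPC was chosen by its doxycycline change, which enters this measure, so that its distance from other genes follows in part from that choice. NPPB had closer neighbours on this scale, BNIP3 at 0.217, WNT1 at 0.226 and ANXA1 at 0.227. The added 0.5 CPM narrows the differences of a gene at a low level such as NPPB. With miR-10a and miR-10b the log2 fold changes were -0.38 and -0.70 for BNIP3, -0.45 and -0.65 for WNT1 and -0.26 and -1.07 for ANXA1. All were smaller in size than those of NPPB, -0.66 and -1.50. WNT1, a signalling protein of the midbrain-hindbrain boundary, was at 31.5 CPM with doxycycline and 43.0 without in miR-10a cells, and at 29.8 and 46.8 CPM in miR-10b cells. BNIP3, a mitochondrial protein, was at 40.45 and 52.7 CPM and at 36.8 and 59.8 CPM in the same order. All 12 samples entered this measure, which shares their totals and carries no test.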

How the data were processed

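RNA of 12 cultures (3 in each of 4 groups) was sequenced as single-end reads. The authors mapped the reads to hg19, quantified them to RefSeq and deposited raw counts per transcript with its length in bases, without normalization; the submitters' processing notes name STAR, Subread and featureCounts, with versions not given in the sources used here. For RNA extraction and libraries the methods and the sample labels name different kits. The 3698 repeated rows were dropped, leaving 48101 transcripts, and 1 transcript per gene was used, the one with the highest mean count.

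The test used was that of edgeR 4.0.16 (R 4.3.3) on the 11451 genes with a mean above 10 counts (quasi-likelihood, 4 groups in one fit, total count as library size) and Benjamini-Hochberg adjustment over all of them at a threshold of 0.05; standard errors are the log2 fold change divided by the root of F, and 95% intervals use the degrees of freedom of the same fit. The code was tested on simulated data. Replicate numbers did not pair samples: deviations from group means correlated at -0.0319 to 0.00820 in 6 pairs with the same number, so the fit has no block. Alternatives were TMM factors, DESeq2 1.42.0, no filter on low counts, summed transcripts, thinned counts, each vector alone, a replicate block and leaving out each sample.

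The members, gene lists and tests were chosen with earlier results of these data known. Named genes are all members, list genes and neighbours within 200 kb past the threshold in a doxycycline comparison, and the 3 genes most like NPPC and NPPB; other names were chosen after their values were seen, and 1 gene is not reported here. Of the gene names, 22104 of 25718 matched GENCODE 44. The mature miR-10b-5p sequence was not used here. Figures were made with matplotlib 3.10.9 in Python 3.11.15.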

Additional observations from a re-analysis of the deposited data

Results flagged for a closer look

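GUCY2C, the guanylate cyclase receptor for guanylin in the gut and a gene of the cGMP synthesis list, had 14, 13 and 12 counts in the miR-10a doxycycline samples and 0, 0 and 0 in their controls, against 5, 3 and 1 and 3, 0 and 3 in miR-10b cells. Its mean of 4.5 counts kept it out of the tested genes, and it is named after its values were seen. With the control set at the floor of 3 counts per library, it was at least 5.02-fold higher with miR-10a and doxycycline. In an edgeR fit without a filter on low counts, the doxycycline effects of the vectors differed (adjusted p = 0.00758), with an adjusted p of 4.5e-10 for miR-10a and of 0.686 for miR-10b. The difference between the vectors is what singled this gene out.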

How the results depend on the processing

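Of the members and groups of genes above, NPPC and NPPB kept their direction under each alternative. Leaving out 1 sample at a time gave 2.47 to 2.77 for NPPC with miR-10a, 2.04 to 2.30 with miR-10b, and -0.789 to -0.467 for NPPB with miR-10a. All genes called with miR-10a numbered 139, 272 with each vector fitted alone and 75 to 268 when leaving out 1 sample (75, 81 and 84 without miR-10a doxycycline replicate 1, miR-10a control replicate 3 and miR-10a control replicate 1, and 268 without miR-10b doxycycline replicate 2). Genes whose effects differed between the vectors numbered 224, 343 without a filter, and 140 to 339 when leaving out 1 sample (140 without miR-10a control replicate 2, 339 without miR-10b doxycycline replicate 3). Members called with miR-10b went from 1 to 0 with each vector fitted alone (PRKG1 adjusted p = 0.0637) and with thinned counts (0.0900), and were 0 to 1 when leaving out 1 sample. Over both vectors they went from 0 to 1 with summed transcripts (PRKG1, 0.42, adjusted p = 0.0440) and were 0 to 1 when leaving out 1 sample (1 without miR-10b doxycycline replicate 3). Between controls they went from 0 to 1 with thinned counts (NPPB, 0.69, adjusted p = 0.0490) and were 0 to 1 when leaving out 1 sample. The cause of these changes was not tested. Values near 0 changed sign: NPR2 with miR-10b was -0.0042 in DESeq2 and -0.0177 to 0.0716 when leaving out 1 sample, its difference between vectors 0.0418 with thinned counts and -0.0376 to 0.0518, its value with miR-10a -0.0084 to 0.0525 and that of ABCC5 -0.0382 to 0.0159. RGS2 with miR-10a, ABCC5, MAD2L2 and KIAA2013 with miR-10b, and FBXO2 over both vectors lost their call under at least 1 alternative, and KIAA2013, FBXO2 and RGS2 did so in most of the 12 fits that left out 1 sample. With the replicate block, 166, 1826 and 1680 genes were called with miR-10a, with miR-10b and over both vectors, and PRKG1 with miR-10b was at 0.60 (adjusted p = 0.0347); the block changed no call of a member. The mean over both vectors has no value where each vector was fitted alone. TMM factors were 0.993 to 1.01. With under 15 counts per sample, NPPA and NPR1 allow no statement on moderate differences.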
